A study of Homo sapiens with 3 samples.

Results

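The genes described here were 40 genes of the heat shock response, the unfolded protein response of the endoplasmic reticulum (ER) and the ATF4 response, taken by gene symbol out of the 46427 genes in the deposited expression table. Each symbol matched a single gene. The cells were MDA-MB-468 (MM468), a human triple-negative breast cancer line of wild-type genotype in the labels, together with an adriamycin-resistant and a paclitaxel-resistant line derived from it. The adriamycin-resistant cells were those that survived exposure to adriamycin (doxorubicin, a DNA intercalator that poisons topoisomerase II) at 10 to 140 nM, and the paclitaxel-resistant cells those that survived paclitaxel (a microtubule stabiliser) at 2 to 320 nM, while the parental cells were untreated. All were grown in the same medium with serum and kanamycin. Whether drug was present when RNA was taken, and whether a resistant line was a clone, is not given in the sources used here. There was 1 library per line, so differences between lines had no replicate check, and no p-value or SD is given.

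Cells answer unfolded protein in the cytosol and in the ER through separate pathways. In the cytosol, HSF1 is released from chaperones, binds heat shock elements in promoters and raises the HSP70, HSP90 and small heat shock proteins with their co-chaperones. In the ER, the sensors IRE1 (gene ERN1), ATF6 and PERK (gene EIF2AK3) respond: IRE1 splices XBP1 mRNA into the template of an active transcription factor, XBP1 and ATF6 raise ER chaperones and degradation genes through the ER stress response element, and PERK phosphorylates eIF2α, which favours translation of ATF4 and its targets of amino acid supply. HSP90 also holds client proteins such as steroid receptors and the aryl hydrocarbon receptor, and XBP1 supports the secretory state of gland cells, the mammary epithelium included.

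The libraries held 32704885 counts in parental MM468, 47567927 in adriamycin-resistant cells and 43242628 in paclitaxel-resistant cells. All 7 epithelial markers checked, among them EPCAM, CDH1, KRT8 and EGFR, were detected in every library with 3364 to 270028 counts. Of the receptors low in triple-negative lines, PGR had 0, 0 and 7 counts in parental, adriamycin-resistant and paclitaxel-resistant cells. In that order, ESR1 had 152, 335 and 161 counts and ERBB2 had 2204, 3597 and 2405. Among markers of other cell types, COL1A2, a fibroblast gene, had 0 in all 3. COL1A1 was detected, with 659, 1629 and 820 counts, and so was CD68, with 206, 527 and 65. The summed level of the 9 markers of other cell types was 16.7, 27.5 and 10.8 TPM (a level corrected for transcript length and for library size) in parental, adriamycin-resistant and paclitaxel-resistant cells, and its part in the differences below was not tested. In bulk RNA, fewer cells of a type and less RNA per cell cannot be told apart. Fold changes compare counts after TMM normalization (trimmed mean of M values, which scales libraries so that most genes agree). The effective library sizes were 47834008 against 32499131 for adriamycin-resistant cells against parental cells, 46764729 against 30219039 for paclitaxel-resistant cells against parental cells, and 47071448 against 43669234 for paclitaxel-resistant cells against adriamycin-resistant cells. A gene was said to rise or fall only when it changed at least 2-fold, and the 95% intervals are exact binomial intervals that cover counting error only.

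The 40 genes together made up 1.19% of all TPM in parental MM468, 1.47% in adriamycin-resistant cells and 1.17% in paclitaxel-resistant cells. The highest level in each library was that of HSPA8, the constitutive cytosolic HSP70, at 1980, 2852 and 1932 TPM in parental, adriamycin-resistant and paclitaxel-resistant cells. The lowest above 0 in the parental line was that of ERN1 at 3.48 TPM, with 6.45 TPM in adriamycin-resistant cells and 3.70 TPM in paclitaxel-resistant cells. HSPB8, the small heat shock protein that partners BAG3, had 0 counts in all 3 libraries and entered no comparison. Thus 39 of the 40 genes were compared, and the lowest-counted of these in the parental line, DDIT3, had 212 counts there.

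The largest ratio between lines in summed TPM was that of the small heat shock proteins, all of it HSPB1, with 362 TPM in parental cells, 802 TPM in adriamycin-resistant cells and 154 TPM in paclitaxel-resistant cells. The 4 genes of ER sensors and factors, ATF6, XBP1, ERN1 and EIF2AK3, summed to 216, 92.7 and 55.4 TPM, most of it XBP1. The cytosolic HSP90 pair summed to 2428, 3566 and 3174 TPM and the 6 genes of the HSP70 system to 2493, 3452 and 2416 TPM. The 11 ER chaperones, folding enzymes and secreted ER factors stayed closer together, at 3389, 3481 and 3070 TPM. The 7 genes of the ATF4 arm summed to 1330, 945 and 787 TPM, ATF4 itself being the most abundant of them.

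**Figure D1:**
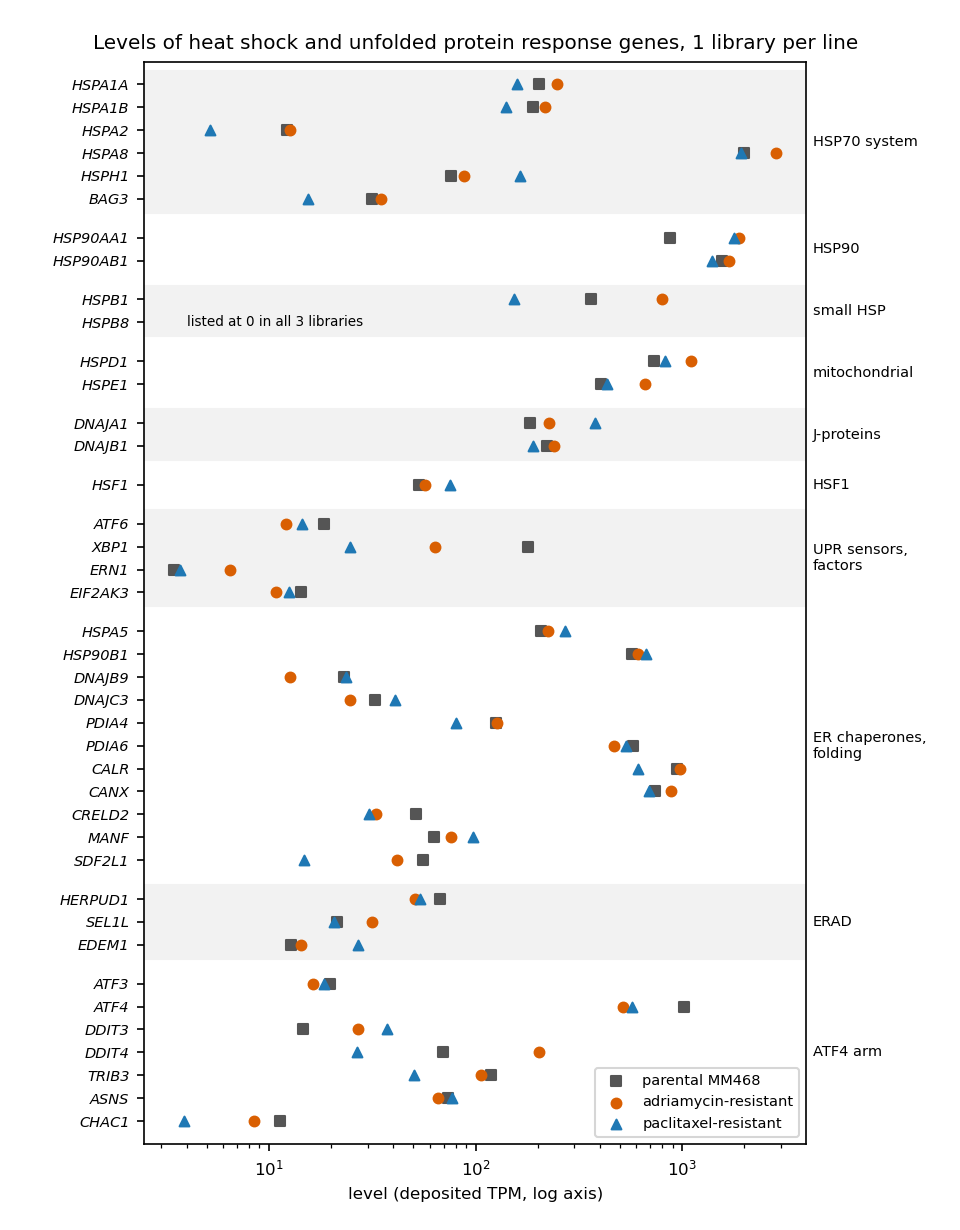
Level of each gene in deposited TPM on a log axis, grouped by role, with squares for parental MM468, circles for adriamycin-resistant cells and triangles for paclitaxel-resistant cells, 1 library each. XBP1 ran from 180 TPM in parental cells to 24.8 TPM in paclitaxel-resistant cells, and HSPB1 and DDIT4 were highest in adriamycin-resistant cells and lowest in paclitaxel-resistant cells.

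In adriamycin-resistant cells, 3 of the 39 genes rose against parental cells, HSP90AA1, HSPB1 and DDIT4, and 1 fell, XBP1. Over all 17950 genes with 10 or more counts in either library, 10.9% passed 2-fold upward and 11.4% downward. Since every one of the 39 genes was well counted, the genes with 100 or more counts are the closer background, and of those 6.17% were higher and 7.95% lower. The median log2 fold change of the 39 genes was 0.15, against 0.01 for genes with 100 or more counts, whose middle 50% ran from -0.36 to 0.35. There were 25 genes above 0 and 14 below. The share of genes called was therefore near the background in adriamycin-resistant cells.

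In paclitaxel-resistant cells, none of the 39 genes rose against parental cells and 9 fell: HSPA2, BAG3, HSPB1, XBP1, CRELD2, SDF2L1, DDIT4, TRIB3 and CHAC1. The background was 20.5% higher and 13.5% lower with 10 or more counts, and 11.6% higher and 12.8% lower with 100 or more. The median was -0.43, against -0.04 for all genes with 100 or more counts, whose middle 50% ran from -0.57 to 0.45, and 31 genes lay below 0 and 8 above. These counts moved with the scaling: with library size in place of TMM the median of all genes went from 0.07 to 0.30 and the higher share of all calls from 60.2% to 71.2%, while for the 39 genes the median became -0.21, with 7 lower, 1 higher and 28 below 0. On the log2(TPM + 1) scale the median of the 39 genes was -0.11, with 7 lower, 5 higher and 24 below 0. The median of all 19099 genes on that scale was 0.27, with 2607 higher and 1055 lower. By library size, 4738 of all 19099 genes were higher and 1919 lower. Both comparisons use the same parental library, so their values are given side by side and not counted against each other.

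**Figure D2:**
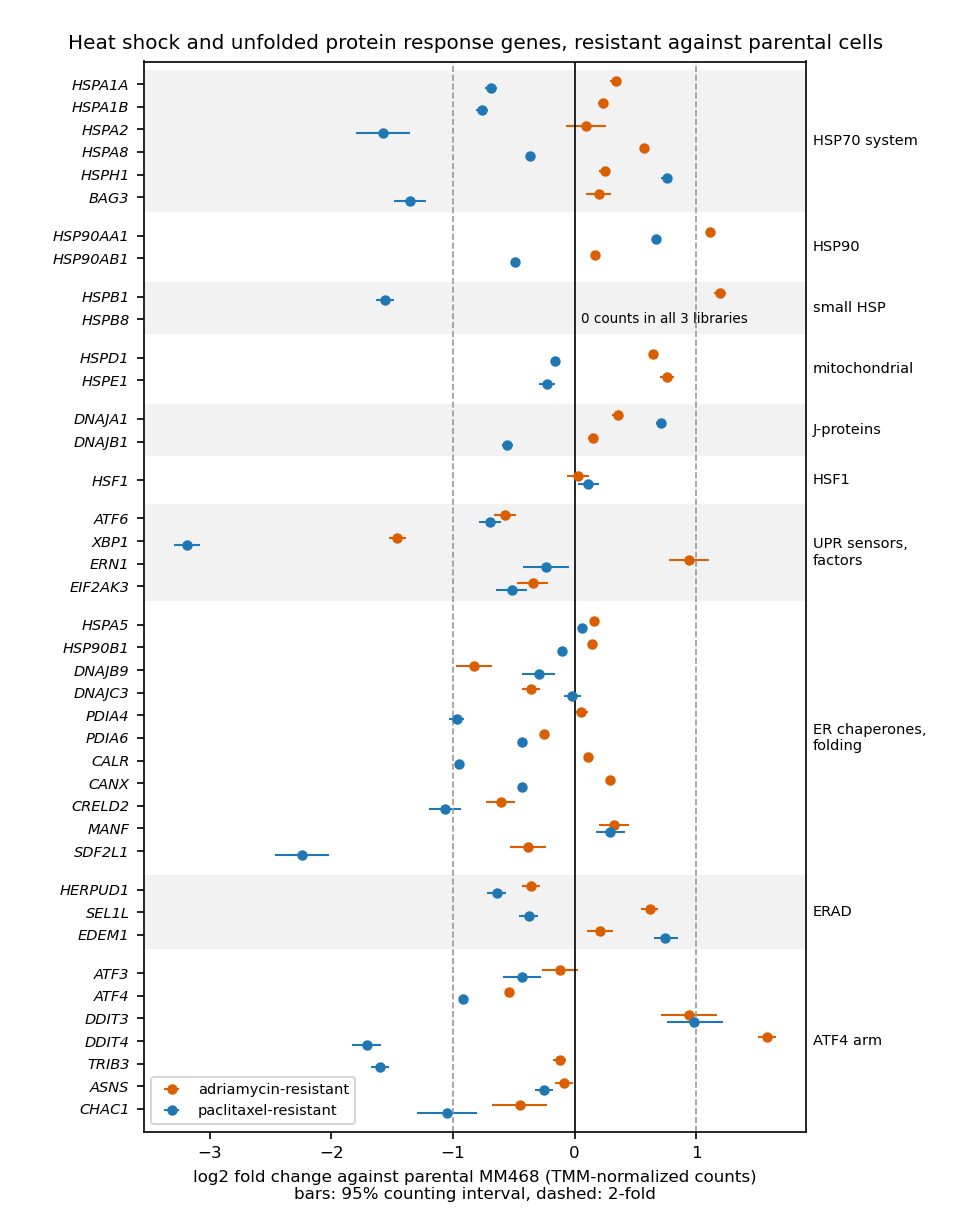
Log2 fold change against parental MM468 for 39 genes grouped by role, in adriamycin-resistant and paclitaxel-resistant cells, with 95% counting intervals as bars and 2-fold as dashed lines. In adriamycin-resistant cells 3 genes lie beyond the upper line and 1 beyond the lower, and in paclitaxel-resistant cells 9 lie beyond the lower line with XBP1 farthest, at -3.19.

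Among the cytosolic HSP70 genes none passed 2-fold in adriamycin-resistant cells, and HSPA2 and BAG3 fell in paclitaxel-resistant cells. HSPA1A, the stress-inducible HSP70, had 7217 counts in parental cells, 13415 in adriamycin-resistant cells and 6944 in paclitaxel-resistant cells, log2 fold changes of 0.34 and -0.69 against parental cells. Its near copy HSPA1B had 7058, 12233 and 6455 counts, and log2 fold changes of 0.24 and -0.76. The 2 genes gave nearly the same picture, but 69.9% of the 100-base stretches of the HSPA1A transcript are also in HSPA1B, so how reads were split between them is uncertain. HSPA8 had 66134, 144972 and 79510 counts, with log2 fold changes of 0.57 and -0.36. HSPA2, an HSP70 relative most abundant in testis, had 502, 787 and 261 counts. It was 1.07-fold higher in adriamycin-resistant cells (0.951 to 1.19) and fell 2.98-fold in paclitaxel-resistant cells (95% interval 2.56 to 3.47).

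The nucleotide exchange factors of HSP70 went different ways in paclitaxel-resistant cells. HSPH1 (HSP110), which releases ADP from HSP70, had 5734 counts in parental cells, 10018 in adriamycin-resistant cells and 15008 in paclitaxel-resistant cells. It was 1.19-fold higher in adriamycin-resistant cells and 1.69-fold higher in paclitaxel-resistant cells (1.64 to 1.74), short of 2-fold by counts, though its TPM of 76.1, 88.0 and 163 passed it. BAG3, which hands HSP70 clients to autophagy, had 1195, 2018 and 724 counts, a 1.15-fold higher value in adriamycin-resistant cells (1.07 to 1.23) and a 2.55-fold fall in paclitaxel-resistant cells (2.33 to 2.81). On the log2(TPM + 1) scale the BAG3 value in paclitaxel-resistant cells were -0.98, just short of 2-fold.

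HSP90AA1, the inducible HSP90, rose in adriamycin-resistant cells, and its constitutive partner HSP90AB1 did not pass 2-fold in either line. HSP90AA1 had 43363 counts in parental cells, 137989 in adriamycin-resistant cells and 106496 in paclitaxel-resistant cells, so that both resistant lines lay above the parental line. The rise was 2.16-fold in adriamycin-resistant cells (2.14 to 2.19), and the value in paclitaxel-resistant cells were 1.59-fold higher (1.57 to 1.61), with 2-fold passed only on the log2(TPM + 1) scale, at 1.03. HSP90AB1 had 58715, 97075 and 64673 counts, log2 fold changes of 0.17 and -0.49. In TPM the order of the pair turned over: HSP90AB1 stood above HSP90AA1 in parental cells (1554 against 874 TPM) and below it in adriamycin-resistant cells (1688 against 1878 TPM) and paclitaxel-resistant cells (1389 against 1784 TPM).

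HSPB1 (HSP27), which holds unfolding proteins out of aggregates, moved in opposite directions in the resistant lines. It had 4155 counts in parental cells, 14024 in adriamycin-resistant cells and 2179 in paclitaxel-resistant cells. It rose 2.29-fold in adriamycin-resistant cells (2.22 to 2.38) and fell 2.95-fold in paclitaxel-resistant cells (2.80 to 3.11). Adriamycin-resistant cells gave the high library and paclitaxel-resistant cells the low one, and the difference between the 2 effects was not tested because each line has 1 library.

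The promoters of the cytosolic genes were read for heat shock elements, shown for HSPA8, HSP90AA1 and HSPB1 because these carry the most abundant transcript, the rise in adriamycin-resistant cells and the opposite changes. Windows were RefSeq sequence of GRCh38.p14 from 250 bases before to 50 after a transcript start, 57 windows for 39 of the 40 genes, written 5′ to 3′ on the strand of the gene. Capitals mark each unit pair of a heat shock element, GAANNTTC or TTCNNGAA, both of which read the same on either strand, and pairs that overlap make a run of 3 alternating units.
HSPA8, chr11:123062087-123062386, minus strand: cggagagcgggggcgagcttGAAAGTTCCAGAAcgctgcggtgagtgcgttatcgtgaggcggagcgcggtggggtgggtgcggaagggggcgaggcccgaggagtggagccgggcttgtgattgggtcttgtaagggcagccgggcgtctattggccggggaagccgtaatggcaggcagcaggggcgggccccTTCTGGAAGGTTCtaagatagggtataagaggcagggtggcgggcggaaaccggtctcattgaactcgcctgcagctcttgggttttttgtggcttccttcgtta
HSP90AA1, chr14:102086995-102087294, minus strand: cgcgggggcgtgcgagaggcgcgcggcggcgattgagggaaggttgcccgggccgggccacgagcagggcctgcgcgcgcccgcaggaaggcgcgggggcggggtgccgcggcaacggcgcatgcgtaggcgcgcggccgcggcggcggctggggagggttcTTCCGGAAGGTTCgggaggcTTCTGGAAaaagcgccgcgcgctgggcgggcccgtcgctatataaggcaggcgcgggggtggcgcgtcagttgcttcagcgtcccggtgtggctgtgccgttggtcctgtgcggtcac
HSPB1, chr7:76302423-76302722, plus strand: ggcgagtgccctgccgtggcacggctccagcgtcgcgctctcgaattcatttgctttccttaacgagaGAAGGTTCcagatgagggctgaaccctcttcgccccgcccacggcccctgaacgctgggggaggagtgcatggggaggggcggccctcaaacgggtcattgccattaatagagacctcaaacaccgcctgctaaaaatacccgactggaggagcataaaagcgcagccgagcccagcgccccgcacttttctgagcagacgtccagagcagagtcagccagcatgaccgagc
HSPA8 held 3-unit elements at -230 to -218 and at -55 to -43 from the start, HSP90AA1 1 at -88 to -76, and HSPB1 only a unit pair at -182 to -175. Of the genes with a window, 33.3% of the 39 held a unit pair against 16.2% of all 27305 genes, and 12.8% held a 3-unit element (HSPA8, HSP90AA1, HSP90AB1, HSPD1 and DNAJA1) against 0.608% of all. The genes with a 3-unit element had log2 fold changes of 0.17 to 1.11 in adriamycin-resistant cells and of -0.49 to 0.71 in paclitaxel-resistant cells, and only HSP90AA1 among them passed 2-fold in either. A match is a description of letters in the window and says nothing of HSF1 binding in these cells.

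The mitochondrial chaperonins HSPD1 (HSP60) and HSPE1 (HSP10), which form the folding chamber of the matrix, did not pass 2-fold against parental cells. HSPD1 had 24234, 55648 and 33629 counts in parental, adriamycin-resistant and paclitaxel-resistant cells and log2 fold changes of 0.64 and -0.16. HSPE1 had 3321, 8283 and 4389 counts and log2 fold changes of 0.76 and -0.23. Adriamycin-resistant cells were the highest library for both. The 2 genes start on opposite strands of chromosome 2, with the 2 HSPD1 starts in RefSeq lying 105 and 539 bases from that of HSPE1. The 3-unit heat shock element of HSPD1 is in the window of the farther start. HSPE1 shares sequence with the read-through gene HSPE1-MOB4, which had 100, 245 and 251 counts.

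Of the cytosolic J-proteins, which deliver clients to HSP70, DNAJA1 was highest in paclitaxel-resistant cells and DNAJB1 lowest there. DNAJA1 had 6307, 11877 and 16001 counts, log2 fold changes of 0.36 and 0.71, the latter 1.04 on the log2(TPM + 1) scale. DNAJB1, a classical HSF1 target, had 7371, 12070 and 7767 counts and log2 fold changes of 0.15 and -0.55. HSF1, the factor itself, had 1711, 2569 and 2862 counts and log2 fold changes of 0.03 and 0.11, so its mRNA differed from the parental level by 1.02-fold (0.959 to 1.09) and 1.08-fold (1.02 to 1.15). Activation of HSF1 is by release and phosphorylation, which mRNA levels do not show.

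XBP1, the transcription factor made by IRE1 splicing, had the largest fall of all 39 genes in both lines. It had 4829 counts in parental cells, 2587 in adriamycin-resistant cells and 821 in paclitaxel-resistant cells, a falling order although the resistant libraries were deeper. It fell 2.75-fold in adriamycin-resistant cells (2.62 to 2.88) and 9.10-fold in paclitaxel-resistant cells (8.45 to 9.81). Of all genes compared, 6.52% had a lower value than XBP1 in adriamycin-resistant cells and 2.06% in paclitaxel-resistant cells. Gene-level counts do not separate spliced from unspliced XBP1, so they say nothing of IRE1 activity.

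The 3 sensors upstream did not pass 2-fold against parental cells. ERN1, the IRE1 kinase and nuclease, had 409, 1154 and 537 counts, 1.92-fold higher in adriamycin-resistant cells (1.71 to 2.15) and 1.18-fold lower in paclitaxel-resistant cells (1.03 to 1.34). ATF6, which is cut in the Golgi to free its transcription factor domain, had 2039, 2021 and 1948 counts, log2 fold changes of -0.57 and -0.70. EIF2AK3, the PERK kinase, had 951, 1101 and 1029 counts, log2 fold changes of -0.35 and -0.52. ERN1 was therefore the only gene of the 4 with a value above 0 in adriamycin-resistant cells, and by TMM all 4 lay below 0 in paclitaxel-resistant cells, ERN1 turning to 0.07 on the log2(TPM + 1) scale.

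Promoters of ER genes are shown for XBP1, CRELD2 and HSPA5, because they share the ER stress response element yet differed most in their change. Windows and build are those given above, and capitals mark the element, CCAAT, then 9 bases, then CCACG, on either strand.
XBP1, chr22:28800520-28800819, minus strand: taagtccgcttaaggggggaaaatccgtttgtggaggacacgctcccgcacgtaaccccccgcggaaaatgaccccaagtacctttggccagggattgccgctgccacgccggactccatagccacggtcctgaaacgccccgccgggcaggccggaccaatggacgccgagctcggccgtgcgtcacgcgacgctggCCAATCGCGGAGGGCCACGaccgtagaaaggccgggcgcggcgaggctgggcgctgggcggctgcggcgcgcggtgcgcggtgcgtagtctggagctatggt
CRELD2, chr22:49918384-49918683, plus strand: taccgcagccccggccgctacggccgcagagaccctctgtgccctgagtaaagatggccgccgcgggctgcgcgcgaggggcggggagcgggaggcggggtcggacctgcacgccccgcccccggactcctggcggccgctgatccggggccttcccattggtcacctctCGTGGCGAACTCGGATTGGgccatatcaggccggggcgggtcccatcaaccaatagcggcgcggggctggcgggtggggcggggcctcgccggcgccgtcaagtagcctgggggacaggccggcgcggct
HSPA5, chr9:125241294-125241593, minus strand: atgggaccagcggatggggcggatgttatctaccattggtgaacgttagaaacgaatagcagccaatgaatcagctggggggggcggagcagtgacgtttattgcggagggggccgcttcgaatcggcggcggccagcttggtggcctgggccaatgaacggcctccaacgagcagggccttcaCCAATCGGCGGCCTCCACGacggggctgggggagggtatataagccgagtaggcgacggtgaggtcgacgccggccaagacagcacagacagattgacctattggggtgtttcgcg
The element lay at -52 to -34 in XBP1, at -80 to -62 and on the opposite strand in CRELD2, and at -66 to -48 in HSPA5. It was found in 7 of the 39 genes with a window, 17.9% (XBP1, HSPA5, HSP90B1, PDIA6, CALR, CANX and CRELD2), against 0.0916% of all genes. The XBP1-type element TGACGTGG was found in 0 of the 39 and in 0.927% of all genes. Log2 fold changes in paclitaxel-resistant cells were -3.19 for XBP1, -1.06 for CRELD2, -0.95 for CALR and -0.43 for both PDIA6 and CANX. HSP90B1 had -0.10 and HSPA5 0.06, so by TMM HSPA5 alone of the 7 genes lay above 0. Only XBP1 and CRELD2 passed 2-fold, and whether the element had a part in these values was not tested.

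The major ER chaperones stayed within 2-fold in both lines. HSPA5 (BiP), the ER HSP70 and the standard marker of ER stress, had 11996, 19739 and 19369 counts in parental, adriamycin-resistant and paclitaxel-resistant cells. It was 1.12-fold higher in adriamycin-resistant cells (1.09 to 1.14) and 1.04-fold higher in paclitaxel-resistant cells (1.02 to 1.07). HSP90B1 (GRP94), the ER HSP90, had 23614, 38404 and 34020 counts and log2 fold changes of 0.14 and -0.10, the latter 0.12 when scaled by library size. By TMM neither chaperone thus differed by more than 1.12-fold in either line.

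The lectin chaperones and disulfide isomerases were lower in paclitaxel-resistant cells without passing 2-fold. CALR, the soluble lectin chaperone, had 26420, 41903 and 21181 counts, 1.08-fold higher in adriamycin-resistant cells (1.06 to 1.09) and 1.93-fold lower in paclitaxel-resistant cells (1.90 to 1.97). CANX, its membrane-bound relative, had 53480, 96460 and 61364 counts and log2 fold changes of 0.29 and -0.43. The isomerase PDIA4 had 5143, 7868 and 4063 counts and was 1.96-fold lower in paclitaxel-resistant cells (1.88 to 2.04), an interval that includes 2-fold. PDIA6 had 19497, 24096 and 22320 counts and log2 fold changes of -0.25 and -0.43.

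The J-proteins of the ER, both raised by XBP1 in the textbook scheme, did not pass 2-fold in either line. DNAJB9 (ERdj4), which represses IRE1 through BiP, had 824, 683 and 1039 counts, 1.78-fold lower in adriamycin-resistant cells (1.60 to 1.97) and 1.23-fold lower in paclitaxel-resistant cells (1.12 to 1.35). DNAJC3 (p58IPK), an inhibitor of PERK, had 2711, 3108 and 4145 counts and log2 fold changes of -0.36 and -0.02, the latter 0.21 when scaled by library size. For both, adriamycin-resistant cells were the lowest library in TPM, at 12.6 and 24.6 TPM.

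The small soluble ER proteins held the other falls. SDF2L1, a partner of the ER J-protein DNAJB11 that keeps misfolded clients soluble, had 682 counts in parental cells, 770 in adriamycin-resistant cells and 223 in paclitaxel-resistant cells. It was 1.30-fold lower in adriamycin-resistant cells (1.17 to 1.45) and fell 4.73-fold in paclitaxel-resistant cells (4.06 to 5.53), second to XBP1 among the 39 genes. CRELD2, a secreted ER stress protein, had 1126, 1087 and 833 counts, 1.53-fold lower in adriamycin-resistant cells (1.40 to 1.66) and a 2.09-fold fall in paclitaxel-resistant cells (1.91 to 2.29) that did not pass 2-fold when scaled by library size (-0.84 on the log2 scale) or on the log2(TPM + 1) scale (-0.73). MANF, a secreted protective factor of the same response, had 848, 1562 and 1609 counts and log2 fold changes of 0.32 and 0.29, so it did not share the direction of its neighbours in this group.

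Genes of ER-associated degradation stayed within 2-fold. HERPUD1, a membrane scaffold of the degradation complex and a target of several arms of the response, had 2833, 3253 and 2809 counts and log2 fold changes of -0.36 and -0.64. SEL1L, the adaptor of the HRD1 ubiquitin ligase, had 2470, 5577 and 2946 counts and log2 fold changes of 0.62 and -0.38. EDEM1, which marks misfolded glycoproteins for removal and is a known XBP1 target, had 1161, 1974 and 3017 counts, 1.16-fold higher in adriamycin-resistant cells (1.07 to 1.24) and 1.68-fold higher in paclitaxel-resistant cells (1.57 to 1.80), the highest value of any ER gene of the group in that line. On the log2(TPM + 1) scale EDEM1 passed 2-fold in paclitaxel-resistant cells, at 1.03.

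ATF4 itself was lower in both lines without passing 2-fold. It had 24827 counts in parental cells, 25165 in adriamycin-resistant cells and 20343 in paclitaxel-resistant cells, 1.45-fold lower in adriamycin-resistant cells (1.43 to 1.48) and 1.89-fold lower in paclitaxel-resistant cells (1.85 to 1.92). ATF4 output is set largely by translation, which these data do not measure. ATF3, a stress factor downstream of ATF4, had 630, 853 and 724 counts and log2 fold changes of -0.12 and -0.43. DDIT3 (CHOP), the pro-apoptotic factor of the pathway, went the other way, with 212, 598 and 650 counts. It was 1.92-fold higher in adriamycin-resistant cells (1.64 to 2.25) and 1.98-fold higher in paclitaxel-resistant cells (1.69 to 2.32), intervals that both include 2-fold, and it passed 2-fold in paclitaxel-resistant cells when scaled by library size, at 1.21 on the log2 scale.

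Of the ATF4 targets, DDIT4 moved most and in opposite directions. DDIT4 (REDD1), an inhibitor of mTORC1 that also answers hypoxia, glucocorticoids and DNA damage, had 1799 counts in parental cells, 7942 in adriamycin-resistant cells and 851 in paclitaxel-resistant cells. It rose 3.0-fold in adriamycin-resistant cells (2.85 to 3.16) and fell 3.27-fold in paclitaxel-resistant cells (3.01 to 3.55), so the parental level lay between the resistant lines. TRIB3, a pseudokinase that restrains ATF4, had 4355, 5883 and 2217 counts, 1.09-fold lower in adriamycin-resistant cells (1.05 to 1.13) and a 3.04-fold fall in paclitaxel-resistant cells (2.89 to 3.20).

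ASNS and CHAC1, a pair of direct ATF4 targets, differed from each other. ASNS, which makes asparagine, had 2602, 3604 and 3389 counts and log2 fold changes of -0.09 and -0.25, the latter 0.08 on the log2(TPM + 1) scale. The read-through gene CZ1P-ASNS, which shares its sequence, had 26, 158 and 59 counts. CHAC1, an enzyme that degrades glutathione, had 318, 342 and 238 counts, 1.37-fold lower in adriamycin-resistant cells (1.17 to 1.60) and a 2.07-fold fall in paclitaxel-resistant cells (1.74 to 2.46), lost when scaled by library size (-0.82 on the log2 scale) and, narrowly, with a minimum of 100 counts (-0.99). The C/EBP-ATF response element, searched as TGATGNAA on both strands, was in 4 of the 39 genes with a window (HERPUD1, ATF3, ASNS and CHAC1), 10.3%, against 4.46% of all genes. The CHAC1 window is shown as the only one of the 4 whose gene fell, with the element in capitals, read on the opposite strand at -209 to -202.
CHAC1, chr15:40953221-40953520, plus strand: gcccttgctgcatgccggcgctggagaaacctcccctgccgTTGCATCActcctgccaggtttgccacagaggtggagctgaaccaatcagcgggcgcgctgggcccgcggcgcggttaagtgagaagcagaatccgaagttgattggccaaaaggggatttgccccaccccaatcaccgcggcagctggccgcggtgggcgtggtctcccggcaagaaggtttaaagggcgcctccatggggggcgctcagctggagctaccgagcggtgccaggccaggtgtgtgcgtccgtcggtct

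Set directly against each other, the resistant lines differed mostly by lower values in paclitaxel-resistant cells. In paclitaxel-resistant cells against adriamycin-resistant cells, 0 of the 39 genes rose and 14 fell, against a background of 19.4% higher and 14.0% lower with 10 or more counts and of 11.3% higher and 13.3% lower with 100 or more. The median was -0.63, against -0.07 for all genes with 100 or more counts, and 32 genes lay below 0 and 7 above. With library size in place of TMM the higher share of all calls went from 58.2% to 71.4%, and for the 39 genes the lower count became 7, the median -0.39 and the number below 0 26. DDIT4, with 7942 against 851 counts, was 10.1-fold lower in paclitaxel-resistant cells (9.37 to 10.8), and HSPB1 6.94-fold lower (6.63 to 7.26). SDF2L1 was 3.72-fold lower (3.20 to 4.34) and XBP1 3.40-fold lower (3.14 to 3.68), followed by HSPA2, BAG3 and TRIB3 at 3.25-fold, 3.0-fold and 2.86-fold. These 7 are the genes still at least 2-fold lower with library size alone. The other 7, HSPA1A, HSPA1B, HSPE1, ERN1, PDIA4, CALR and SEL1L, were between 2.03-fold and 2.32-fold lower by TMM and did not pass 2-fold by library size. The highest values belonged to EDEM1 (0.50 on the log2 scale), DNAJB9 (0.50) and HSPH1 (0.47), none past 2-fold.

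**Figure D3:**
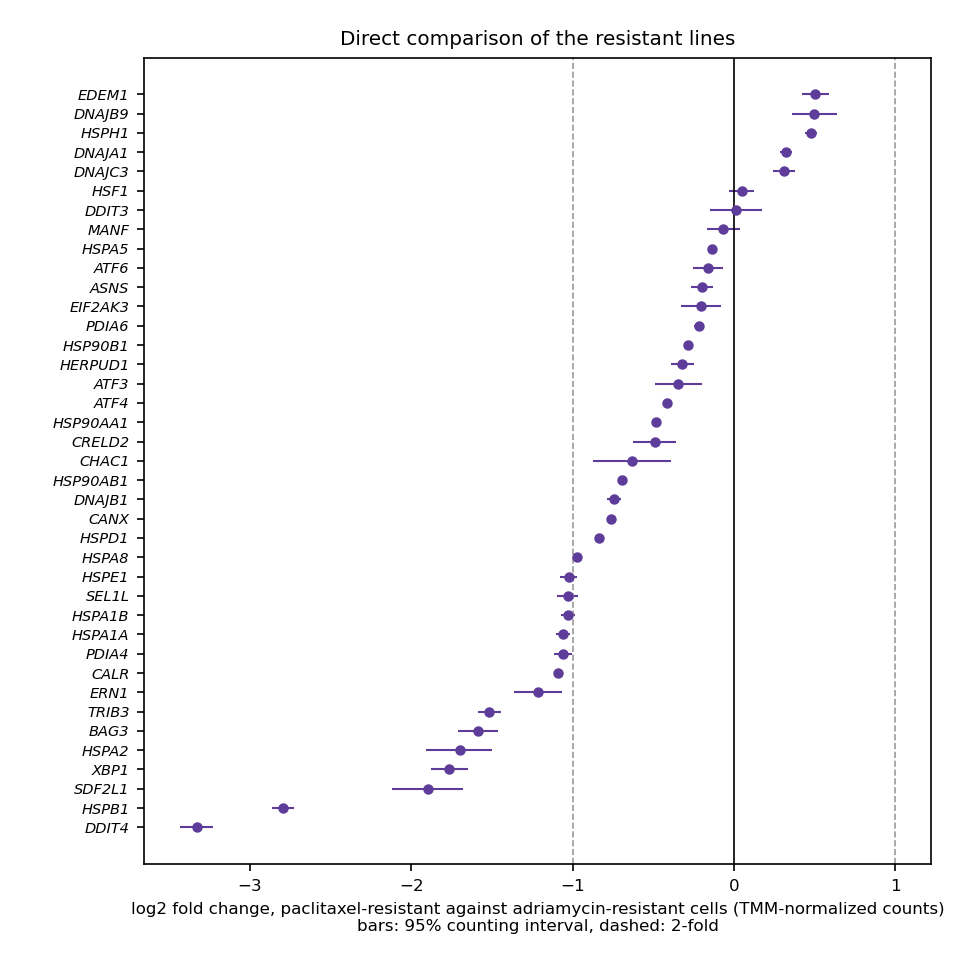
Log2 fold change of 39 genes in paclitaxel-resistant cells against adriamycin-resistant cells, ordered by value, with 95% counting intervals as bars and 2-fold as dashed lines. DDIT4 (-3.33) and HSPB1 (-2.79) lie farthest out, 14 genes lie beyond the lower line and 0 beyond the upper.

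The other genes of these pathways were compared in 9 lists with the same minimum of 10 counts. Their counts stand beside shares over all genes of 10.9% higher and 11.4% lower in adriamycin-resistant cells and of 20.5% higher and 13.5% lower in paclitaxel-resistant cells. The list with most changes was the ATF4 targets of amino acid supply and stress. Of 34 tested in paclitaxel-resistant cells against parental cells 13 fell (38.2%, against 13.5% of all genes) and 0 rose, with a median of -0.67 (11 and 1 with a median of -0.44 by library size). In adriamycin-resistant cells 3 of 35 fell and 2 rose, with a median of -0.14. SLC6A9, a glycine transporter, had 2880, 1199 and 462 counts in parental, adriamycin-resistant and paclitaxel-resistant cells, log2 fold changes of -1.82 and -3.27. PHGDH, which starts serine synthesis, had 14343, 11954 and 6621 counts, log2 fold changes of -0.82 and -1.75. ALDH1L2, of mitochondrial folate metabolism, had 749, 1923 and 213 counts, log2 fold changes of 0.80 and -2.44. The others that fell in paclitaxel-resistant cells were PSAT1, SHMT2, PYCR1, SLC1A4, SLC1A5, SLC43A1, STC2, VEGFA, ADM2 and NUPR1, at -1.07 to -1.98. In adriamycin-resistant cells, SLC1A4 (-2.24), SLC6A9 and ADM2 (-1.18) fell. GDF15, a secreted stress cytokine that is also a p53 target, rose there with 68, 410 and 66 counts, log2 fold changes of 2.03 and -0.67, and FGF21, with 0, 58 and 0 counts, was the other.

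The aminoacyl-tRNA synthetases of the ATF4 response had 4 falls (30.8%, against 13.5% of all genes) and 0 rises among 13 in paclitaxel-resistant cells, with a median of -0.53 (2 falls and a median of -0.31 by library size). These were AARS1 (-1.58), CARS1 (-1.69), EPRS1 (-1.02) and VARS1 (-1.06). In adriamycin-resistant cells LARS1 rose (1.22) and YARS1 fell (-1.17), with a list median of 0.04. Of 24 other regulators of the unfolded protein and integrated stress responses, 5 fell in paclitaxel-resistant cells (20.8%, against 13.5% of all genes) and 0 rose. The median there was -0.17, turning to 0.06 by library size. CREB3L2, an ER-bound factor related to ATF6, had 2224, 2088 and 467 counts, log2 fold changes of -0.65 and -2.88. CREB3 (-1.73), CREB3L4 (-2.26), NUPR1 (-1.27) and WFS1 (-2.25), an ER membrane protein that restrains ATF6, were the others, and CREB3L4 (-1.46) was the 1 that fell in adriamycin-resistant cells. NUPR1 is in both lists.

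Other cytosolic heat shock proteins and co-chaperones were mixed: 5 of 37 rose and 2 fell in adriamycin-resistant cells (median 0.08), and 2 of 36 rose and 3 fell in paclitaxel-resistant cells (median 0.09). The risen share was 13.5% in adriamycin-resistant cells, against 10.9% of all genes, and 5.56% in paclitaxel-resistant cells, against 20.5%, and the fallen shares were 5.41%, against 11.4%, and 8.33%, against 13.5%. CRYAB, the small heat shock protein related to HSPB1, had 4518, 7496 and 1082 counts, log2 fold changes of 0.17 and -2.69. The HSP90 co-chaperone AHSA1, which stimulates its ATPase, had 3016, 9662 and 5286 counts and rose in adriamycin-resistant cells (1.12, against 0.18 in paclitaxel-resistant cells). FKBP4, a co-chaperone of HSP90 with steroid receptors, had 3317, 8088 and 14697 counts and rose in paclitaxel-resistant cells (1.52, against 0.73 in adriamycin-resistant cells). Its counterpart FKBP5 had 2919, 1995 and 1478 counts and fell in both lines (-1.11 and -1.61). CHORDC1 rose in paclitaxel-resistant cells (1.26), and DNAJA4 (3.30), DNAJB5 (1.53) and DNAJC7 (1.00) rose in adriamycin-resistant cells with HSPA6, which had 0, 11 and 3 counts. DNAJC7 lay at the threshold, and with DESeq2 size factors, where it did not pass, 4 genes of the list rose. HSPB11 fell in adriamycin-resistant cells (2.0-fold, also at the threshold, with 1 gene of the list falling by library size or by TMM on all 3 libraries) and BAG6 in paclitaxel-resistant cells (-1.21). None of the 8 TRiC chaperonin subunits or the 13 other mitochondrial chaperones and proteases passed 2-fold in either line, with medians of 0.37 and 0.55 in adriamycin-resistant cells and of 0.20 and 0.11 in paclitaxel-resistant cells.

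In the ER lists, 2 of 33 other chaperones and folding enzymes rose and 3 fell in adriamycin-resistant cells (median 0.03), and 4 rose and 0 fell in paclitaxel-resistant cells (median -0.00, or 0.23 by library size). CLGN, a calnexin relative of the testis, had 9, 251 and 147 counts and rose in both lines (4.23 and 3.39), as did FKBP10, with 0, 33 and 82 counts. SERPINH1, the collagen chaperone, had 4079, 10892 and 13266 counts, log2 fold changes of 0.86 and 1.07, and TOR1B rose in paclitaxel-resistant cells (1.10). Among 28 other ER-associated degradation genes 1 fell in adriamycin-resistant cells, DERL3, with 16, 1 and 1 counts, and in paclitaxel-resistant cells 4 fell and 1 rose (median -0.21, or 0.02 by library size). VCP, the ATPase that pulls clients out of the membrane, had 36218, 57192 and 14297 counts, log2 fold changes of 0.10 and -1.97, while NGLY1, which strips their glycans, had 745, 1046 and 4384 counts, log2 fold changes of -0.07 and 1.93. RNF5 (-1.35) and DERL3 also fell in paclitaxel-resistant cells. Of 18 translocon and signal peptidase genes none passed in adriamycin-resistant cells, and in paclitaxel-resistant cells SEC61A2 rose (1.61) and SSR2 fell (-1.07), with medians of -0.02 and -0.34.

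**Figure D4:**
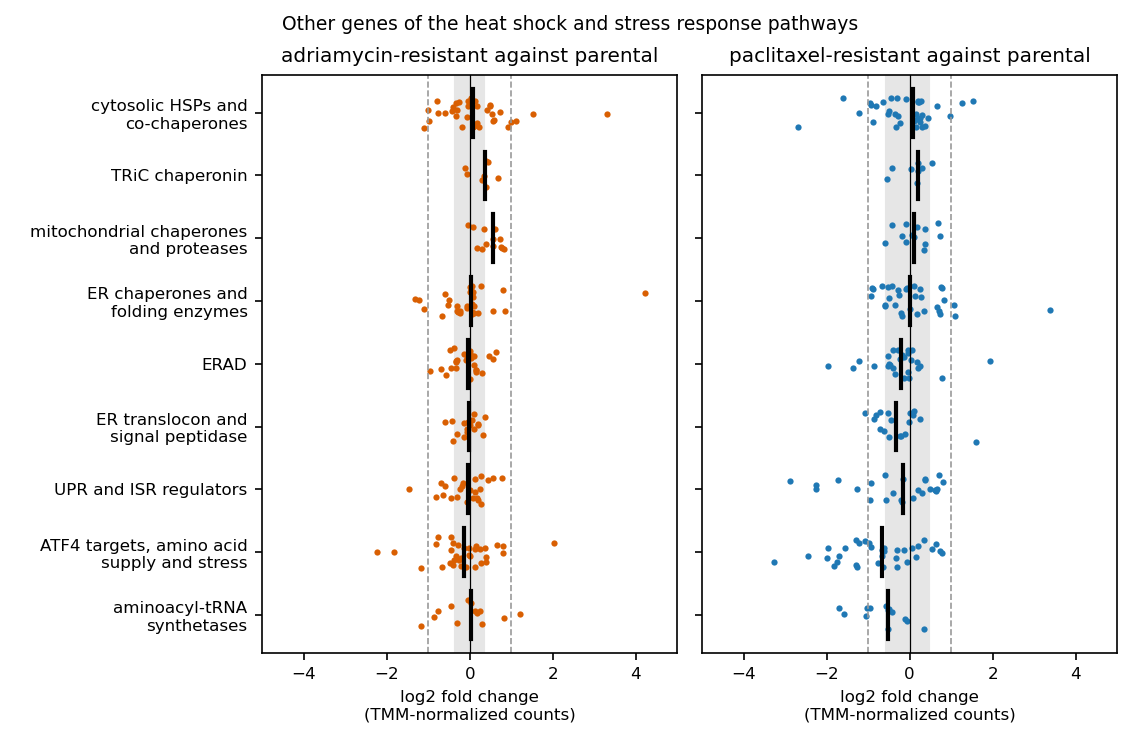
Log2 fold change against parental MM468 of the genes in 9 further pathway lists, in adriamycin-resistant cells (left) and paclitaxel-resistant cells (right), each point 1 gene, black bars the list medians, dashed lines 2-fold and the grey band the middle 50% of all genes with 100 or more counts. The lowest medians are those of the ATF4 targets (-0.67) and aminoacyl-tRNA synthetases (-0.53) in paclitaxel-resistant cells; 4 genes in adriamycin-resistant cells and 2 in paclitaxel-resistant cells with 3 or fewer counts in 1 library are not drawn, though they count in the medians.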

How the data were processed

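Each line (parental MM468, adriamycin-resistant and paclitaxel-resistant) was sequenced as 1 library made with the TruSeq Stranded mRNA kit. The authors deposited gene-level read counts with FPKM and TPM values. The submitters' processing notes name Trimmomatic 0.39, HISAT2 2.2.1, StringTie 2.2.1 and GRCh38, and the annotation release is not given in the sources used here. The labels and the study's methods name different RNA isolation kits. The deposited counts were raw and were used for every fold change, the deposited TPM only for levels and as an alternative scale, and the deposited FPKM values were not used.

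Genes with 10 or more counts in either library of a comparison were scaled by TMM in edgeR 4.0.16 (R 4.3.3), and log2 fold changes were taken with a prior count of 0.125. The ratio of the 2 counts was given an exact binomial (Clopper-Pearson) 95% interval. PCR duplicates were not told apart, so intervals cover counting error only. A floor of 3 counts was used only for a separate bound on the change, which is not printed. The calls, shares and medians given here used the values without that floor. With 1 library per line no dispersion can be estimated and no test was run. The calculation was tested on simulated data. As alternatives, counts were scaled with TMM on all 3 libraries at once, with DESeq2 1.42.0 size factors and with library size alone. Other count minimums (none, or 100), a prior count of 2 and log2(TPM + 1) were also tried.

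Members and lists were chosen with earlier results of these data known. All 40 members were named, and from the lists the genes with 100 or more counts in 1 library that changed at least 2-fold against parental cells. FGF21, HSPA6, FKBP10 and DERL3 were named after their values were seen. Promoter windows are from RefSeq (GRCh38.p14), with no window for HSF1 in the table, and transcript sequences of HSPA1A and HSPA1B are from GENCODE. 1 gene of the lists that met this rule is not reported here.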

Additional observations from a re-analysis of the deposited data

Results flagged for a closer look

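Among the genes of these pathways, 2 changed at least 2-fold in opposite directions in the resistant lines. HSPB1, the small heat shock protein HSP27, had a log2 fold change of 1.20 in adriamycin-resistant cells and of -1.56 in paclitaxel-resistant cells against the same parental library. DDIT4, the mTORC1 inhibitor REDD1, had 1.58 in adriamycin-resistant cells and -1.71 in paclitaxel-resistant cells. With 1 library per line the difference between the lines was not tested. Paclitaxel-resistant cells set directly against adriamycin-resistant cells gave log2 fold changes of -2.79 for HSPB1 and -3.33 for DDIT4, and all 7 alternative settings kept both genes at least 2-fold lower there.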

How the results depend on the processing

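In adriamycin-resistant cells against parental cells the 3 higher and 1 lower genes stayed so under all 7 alternatives, and the median stayed between 0.11 and 0.18. In paclitaxel-resistant cells against parental cells the number of members at least 2-fold higher, 0 by TMM, was 1 by library size, 1 with no count minimum and 1 with a minimum of 100 counts (DDIT3 each time), and 5 on the log2(TPM + 1) scale (with DNAJA1, HSP90AA1, EDEM1 and HSPH1). The 9 lower genes became 7 by library size (CHAC1 and CRELD2 lost), 8 with a minimum of 100 counts (CHAC1 lost) and 7 in TPM (BAG3 and CRELD2 lost). The median of -0.43 became -0.21 by library size, -0.40 with no minimum, -0.38 with a minimum of 100 and -0.11 in TPM. The all-gene median of 0.07 became 0.30 by library size, 0.16 with no minimum, 0.02 with a minimum of 100 and 0.27 in TPM. In paclitaxel-resistant cells against adriamycin-resistant cells the 14 lower genes became 7 by library size, 9 with a minimum of 100, 7 in TPM and 11 with TMM on all 3 libraries (HSPA1B, HSPE1 and SEL1L lost), and the median of -0.63 became -0.39 by library size and -0.28 in TPM. Scaling by library size alone moves every gene of a comparison by the same amount. Of 819 values of single genes under alternatives, 575 lay within the counting interval of the TMM value and 244 outside, and 29 had the opposite sign, for values of at most 0.42 in size. No gene called at least 2-fold changed sign. No paired analysis was possible because each line was sequenced once, and for the same reason no replicate could be left out. Depth does not limit the 39 genes compared, whereas HSPB8 at 0 counts was not detectable.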

Other observations

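For 2 of the genes, counts and TPM did not move together. The ratio of counts to TPM, which for a fixed transcript length differs between libraries only by a common factor, was 1.31 times higher for ATF4 in adriamycin-resistant cells than in parental cells and 1.18 times higher in paclitaxel-resistant cells, after division by the median of that ratio over genes with 100 or more counts in every library. For CHAC1 it was 0.947 times in adriamycin-resistant cells and 1.77 times in paclitaxel-resistant cells, while XBP1, HSPA5, HSPB1 and DDIT4 stayed between 0.996 and 1.00. On the log2(TPM + 1) scale the CHAC1 value in paclitaxel-resistant cells were -1.34, against -1.05 from counts. Pseudogenes of the members held few counts beside their parents: the 15 of HSPD1 had 305, 704 and 350 counts in parental, adriamycin-resistant and paclitaxel-resistant cells, and the 11 of HSPA8 had 79, 202 and 122.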
